A study of Homo sapiens with 5 samples.

Results

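NEK genes encode the NIMA-related kinases, a family of serine/threonine kinases, and 8 of them, NEK1, NEK2, NEK3, NEK4, NEK6, NEK7, NEK8 and NEK9, were followed in HEK293 cells after siRNA knockdown of DICER1 or DROSHA. The members were the rows of the deposited count table that carry those symbols, 8 of 18257 genes in the table and 8 of the 12234 genes tested. The family was selected on the NEK7 read counts of these libraries, which were low with DICER1 siRNA relative to the mock. That comparison of NEK7 is therefore given as a description with no test. The other 7 members were taken from the same family, with earlier results of these data known. NEK5, NEK10 and NEK11 are also in the table but are not among the 8 members, and they are described apart.

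NEK kinases act in mitosis, at the centrosome and at the primary cilium. In mitosis NEK9 binds and switches on NEK6 and NEK7, closely related kinases that consist of little more than a kinase domain, and NEK6 phosphorylates the spindle motor KIF11. NEK2 loosens the linker that ties the paired centrosomes together. NEK1 and NEK8 are ciliary kinases in which mutations cause inherited skeletal and kidney disease. NEK7 also has a second role in immune cells, where it binds NLRP3 and is needed to assemble the NLRP3 inflammasome.

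Poly(A) RNA came from HEK293, a human embryonic kidney line, in its T-REx Flp-In form with a FLAG-tagged DICER1 insert, which all groups carry. No source used here states if the insert was induced. The labels give a time of 18 h for every library, and the treatment was RNAi by transfection. The groups were 2 libraries with DICER1 siRNA (siRNA 1 and siRNA 2), 2 with DROSHA siRNA (siRNA 1 and siRNA 2) and 1 mock library. DICER1 cuts microRNA precursors in the cytoplasm, and DROSHA acts before it in the nucleus. No label states that the cultures were separate, so a p-value here reflects library-to-library spread, which may be technical and includes any difference between siRNAs. Levels are CPM, read counts scaled to library totals that were adjusted with TMM factors. Differences are log2 fold changes from edgeR's quasi-likelihood test, fitted with all 5 libraries, with Benjamini-Hochberg adjustment over 12234 genes and calls at an adjusted p under 0.05.

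Library totals lay between 7620206 and 8736455 counts. The targeted mRNAs were low where labelled: DICER1 stood at 74.1 and 67.7 CPM in the DICER1 siRNA libraries against 243.1 CPM in the mock, and DROSHA at 41.2 and 41.9 CPM in the DROSHA siRNA libraries against 191.5 CPM in the mock. Of markers fixed for the line, VIM, KRT8, KRT18 and LIN28B had at least 50.9 CPM in every library, while PAX2 and NEFM had at most 4.40 CPM. Of markers of other cell types, PTPRC, CD3E, LYZ and ALB had at most 4 counts in any library, HBB had 21.5 to 26.6 CPM, COL1A1 had 5.35 to 7.33 CPM, and PECAM1 was not matched in the table. The share of genes called was 0.00817% in each comparison with the mock, which is 1 gene, the targeted gene itself. In DICER1 against DROSHA it was 0.0163%, both targeted genes.

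NEK7 and NEK9 hold matches in the 3′ UTR to the 7-mer AATCTAA, which is shown because genes that hold it lay lower in the DICER1 siRNA libraries. The 7-mer itself came from an earlier look at the same data, and a match is no independent support. NEK7 held it at 2 places, NEK9 at 1, and NEK1, NEK2, NEK3, NEK4, NEK6 and NEK8 at none, in the longest 3′ UTR of each gene in GENCODE 29. Of 11572 tested genes with such a 3′ UTR of at least 50 bases, 13.4% held it. The sense strand was searched, and capitals mark the 7-mer within 30 bases of the mRNA written as DNA, 5′ to 3′.
NEK7, 3′ UTR bases 1699 to 1705 of 2898: ttgttttctgaAATCTAAtcagttatgtat
NEK7, 3′ UTR bases 2163 to 2169 of 2898: gtatctttttaAATCTAAatgttcatattt
NEK9, 3′ UTR bases 2059 to 2065 of 5211: atctggctgagAATCTAAgttctgtgcctt

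Because both enzymes act in microRNA production, the 3′ UTRs were also searched for the complement of the seed, bases 2 to 8, of 11 microRNAs. NEK7 matched 3 of them, which have different seeds. Mature sequences are from RefSeq with capitals on the seed, and the NEK7 matches follow with capitals on the paired 7 bases.
hsa-miR-23b-3p: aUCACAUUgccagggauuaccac
hsa-miR-92a-3p: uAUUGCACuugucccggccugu
hsa-miR-21-5p: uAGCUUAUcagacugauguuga
NEK7, bases 590 to 596, miR-23b-3p: tgtaactattaAATGTGAagatttggggac
NEK7, bases 611 to 617, miR-23b-3p: tttggggacaaAATGTGAgtcagacactga
NEK7, bases 2509 to 2515, miR-92a-3p: tgctcaacaatGTGCAATgattgtaaattt
NEK7, bases 134 to 140, miR-21-5p: ccagttttcatATAAGCTtcattttgtacc
None of these overlaps a match to AATCTAA. NEK6 also held 2 matches to miR-23b-3p and none to miR-92a-3p or miR-21-5p. Of all 11572 3′ UTRs, 21.9% hold the miR-23b-3p match, 13.7% the miR-92a-3p match and 10.4% the miR-21-5p match. NEK7 held none of the matches to let-7a-5p, miR-17-5p, miR-16-5p, miR-19b-3p, miR-30a-5p, miR-10a-5p, miR-103a-3p or miR-27b-3p. NEK9, with the longest 3′ UTR of the family, held 4 matches to miR-17-5p, 2 to miR-16-5p and 1 each to let-7a-5p, miR-19b-3p, miR-92a-3p and miR-30a-5p.

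NEK7 mRNA had its lowest levels in the DICER1 siRNA libraries, intermediate levels in the DROSHA siRNA libraries and its highest level in the mock. It had 321 and 388 counts in the DICER1 siRNA libraries, 679 and 566 in the DROSHA siRNA libraries and 908 in the mock. On the CPM scale these were 42.0 with DICER1 siRNA 1, 46.7 with DICER1 siRNA 2, 78.0 with DROSHA siRNA 1, 72.2 with DROSHA siRNA 2 and 108.0 in the mock. The 3 groups did not overlap, and the pair of siRNAs against each enzyme gave like values. The exact 95% Poisson intervals, which cover counting error only, ended at 51.6 CPM for the higher DICER1 library, ran from 66.3 to 84.0 CPM over the DROSHA libraries and began at 101.1 CPM for the mock. The gap between the DICER1 libraries and the mock is the one NEK7 was chosen for, so these intervals describe it and test nothing.

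**Figure D1:**
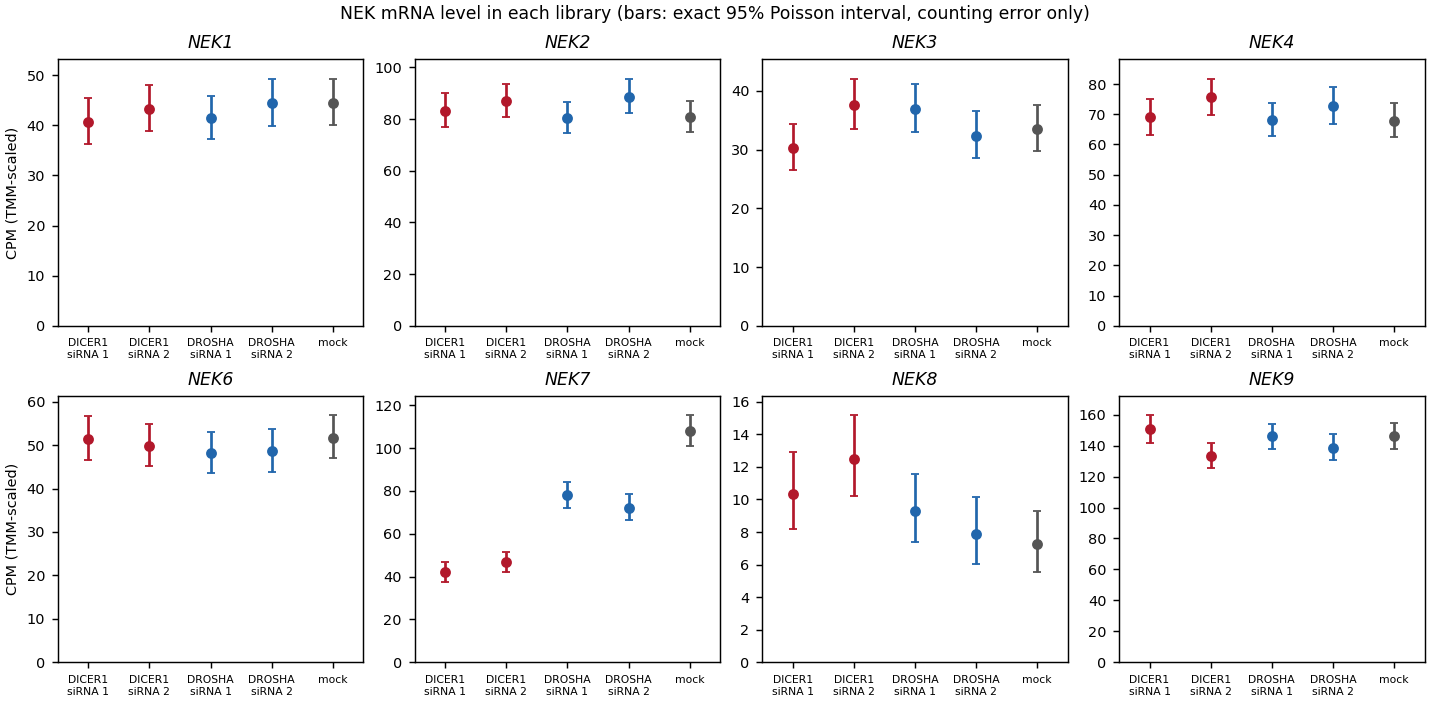
Level of each of the 8 NEK mRNAs (CPM, linear axis from 0) in the DICER1 siRNA, DROSHA siRNA and mock libraries, with exact 95% Poisson intervals as bars. NEK7 runs from 42.0 and 46.7 CPM in the DICER1 libraries through 78.0 and 72.2 CPM in the DROSHA libraries to 108.0 CPM in the mock, NEK8 is highest in the DICER1 libraries, and the other 6 stay near their mock level.

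Relative to the mock, NEK7 stood at 38.9% with DICER1 siRNA 1 and 43.2% with DICER1 siRNA 2. The fitted log2 fold change in DICER1 against mock was -1.28 ± 0.11 (SE). Of 10615 tested genes that averaged 5 CPM or more over the 5 libraries, only DICER1 had a lower fitted value. In single libraries, 1 of these genes lay lower than NEK7 relative to the mock with DICER1 siRNA 1, and 13 did with DICER1 siRNA 2. These ranks describe the value for which the family was picked.

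With DROSHA siRNA, NEK7 stood at 72.2% of the mock with siRNA 1 and 66.8% with siRNA 2. Its log2 fold change in DROSHA against mock was -0.52 ± 0.11 (SE); edgeR put its unadjusted p at 0.00271 and its adjusted p, taken over all genes, at 0.978. Of the 10615 genes, 186 lay lower relative to the mock with DROSHA siRNA 1 and 327 with DROSHA siRNA 2. This comparison uses the same single mock library as the one that led to the choice of NEK7, so a mock that is high for NEK7 and an effect of the siRNAs cannot be told apart in it. Without DROSHA siRNA 1 the value was -0.58, with an edgeR adjusted p of 0.0448, in a fit that called 233 genes and took its spread from the DICER1 pair alone. Over all 8 alternatives the adjusted p ran from 0.0448 to 0.9999.

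Set directly against each other, the DICER1 siRNA libraries averaged 44.3 ± 3.30 CPM of NEK7 and the DROSHA siRNA libraries 75.1 ± 4.10 CPM (SD, n = 2 each), with no overlap. In this comparison 20.0% of all tested genes were lower without overlap. The mock is not part of this contrast. The log2 fold change in DICER1 against DROSHA was -0.76 ± 0.10 (SE), with a 95% interval of -0.99 to -0.52, and edgeR put its unadjusted p at 0.000151 and its adjusted p, taken over all genes, at 0.158, so the difference did not pass. DESeq2 gave an adjusted p of 0.00773 and the edgeR likelihood ratio test 3.62e-06, and over all 12 alternatives the adjusted p ran from 3.62e-06 to 0.998. The DICER1 libraries are those that led to the choice of NEK7, so none of these values is independent of it.

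NEK8, the ciliary kinase linked to nephronophthisis, had the second-largest difference of the family and the opposite sign. It had 79 and 104 counts in the DICER1 siRNA libraries, 81 and 62 in the DROSHA siRNA libraries and 61 in the mock. The levels were 10.3 and 12.5 CPM in the DICER1 libraries, 9.30 and 7.90 CPM in the DROSHA libraries and 7.25 CPM in the mock. Both DICER1 libraries lay above both DROSHA libraries, and all 4 lay above the mock. Of all tested genes, 20.9% were higher without overlap in DICER1 against DROSHA, 36.7% in DICER1 against mock and 31.5% in DROSHA against mock. The log2 fold change in DICER1 against mock was 0.66 ± 0.23 (SE), with a 95% interval of 0.11 to 1.20, an unadjusted p of 0.0250 and an edgeR adjusted p of 0.865, so NEK8 did not pass. DROSHA against mock gave 0.25 ± 0.24 (edgeR adjusted p = 0.978) and DICER1 against DROSHA 0.41 ± 0.18 (edgeR adjusted p = 0.609).

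NEK8 was the least abundant member, and the exact 95% Poisson intervals of its mock level, 5.55 to 9.32 CPM, and of its level with DICER1 siRNA 1, 8.19 to 12.9 CPM, overlapped. The interval with DICER1 siRNA 2, 10.2 to 15.2 CPM, lay above that of the mock. These intervals cover counting error only. In GENCODE 29 its exons overlap those of 2 genes on the opposite strand, TLCD1 among them. Exons of NEK3, NEK4 and NEK9 also overlap genes on the opposite strand. No source used here states if reads were counted by strand. TLCD1 itself had a log2 fold change of -0.19 ± 0.19 in DICER1 against mock (edgeR adjusted p = 0.933). Any part of opposite-strand reads in the NEK8 counts was not tested.

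NEK9 and NEK6, the partners of NEK7 in mitosis, showed no difference past the spread. NEK9, the activating kinase, had 150.5 and 133.6 CPM in the DICER1 siRNA libraries, 145.9 and 138.7 CPM in the DROSHA siRNA libraries and 146.2 CPM in the mock. The DICER1 libraries lay on both sides of the mock. Its log2 fold change was -0.04 ± 0.11 in DICER1 against mock, with a 95% interval of -0.30 to 0.21 and an edgeR adjusted p of 0.978. NEK9 also carries AATCTAA in its 3′ UTR, at 1 place where NEK7 has 2.

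NEK6, the close relative of NEK7, had 51.4 and 49.8 CPM in the DICER1 libraries, 48.1 and 48.6 CPM in the DROSHA libraries and 51.7 CPM in the mock. All 4 siRNA libraries lay below the mock by a small margin. Of all tested genes, 36.4% were below it in both DICER1 libraries and 32.5% in both DROSHA libraries. Its log2 fold change was -0.03 ± 0.11 in DICER1 against mock, with a 95% interval of -0.29 to 0.23 and an edgeR adjusted p of 0.987. In DROSHA against mock it was -0.10 ± 0.11, with an edgeR adjusted p of 0.981. No window of 50 bases in the longest NEK7 or NEK6 transcript of GENCODE 29 occurs in a transcript of another gene, so reads of that length tell the pair apart where they match exactly.

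NEK2, the centrosome kinase that acts on the linker between centrioles, had 83.2 and 87.0 CPM in the DICER1 libraries, 80.5 and 88.7 CPM in the DROSHA libraries and 80.9 CPM in the mock. The DICER1 libraries lay above the mock and the DROSHA libraries on both sides of it. Its log2 fold change was 0.07 ± 0.11 in DICER1 against mock (edgeR adjusted p = 0.954). Of windows of 50 bases in its longest transcript, 5.91% also occur in transcripts of other genes, among them the pseudogenes NEK2P2 and NEK2P4, so its counts are less certain than those of NEK7. The share was 2.29% for NEK8, 2.05% for NEK9, 1.90% for NEK4 and 0 for NEK1 and NEK3.

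NEK1, NEK3 and NEK4 stayed near the mock. NEK1, a kinase of the cilium and of DNA repair, had 40.7 and 43.3 CPM in the DICER1 libraries, 41.4 and 44.4 CPM in the DROSHA libraries and 44.5 CPM in the mock, with a log2 fold change of -0.08 ± 0.12 in DICER1 against mock. NEK3, studied mainly in prolactin receptor signalling, had 30.2 and 37.7 CPM in the DICER1 libraries, 36.9 and 32.4 CPM in the DROSHA libraries and 33.5 CPM in the mock, and both siRNA pairs straddled the mock. NEK4, which has been tied to the response to DNA damage, had 69.0 and 75.6 CPM in the DICER1 libraries, 68.1 and 72.7 CPM in the DROSHA libraries and 67.8 CPM in the mock. All 4 siRNA libraries lay above the mock for NEK4, and its log2 fold change in DICER1 against mock was 0.09 ± 0.11. Of all tested genes, 36.7% were above the mock in both DICER1 libraries and 31.5% in both DROSHA libraries. NEK1, NEK3 and NEK4 did not pass edgeR's test in any comparison, with adjusted p from 0.927 to 0.995.

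Over the 7 members other than NEK7, edgeR's quasi-likelihood test, DESeq2 and the likelihood ratio test each called 0 genes in each of the 3 comparisons. Over all tested genes, for DICER1 against mock, DROSHA against mock and DICER1 against DROSHA, the quasi-likelihood test called 1, 1 and 2. In that order DESeq2 called 5, 1 and 24, and the likelihood ratio test 29, 3 and 130. At an unadjusted p under 0.05 the quasi-likelihood test had 1 of 7 in DICER1 against mock, NEK8, and 0 in the other two, where 5.46%, 3.69% and 8.34% of all tested genes were under it in DICER1 against mock, DROSHA against mock and DICER1 against DROSHA. In DICER1 against mock, 3 of the 7 were higher and 2 lower in both libraries, where 36.7% and 36.4% of all tested genes were. In DROSHA against mock 2 were higher and 3 lower without overlap, where 31.5% and 32.5% of all genes were. In DICER1 against DROSHA 2 were higher and 0 lower without overlap, where 20.9% and 20.0% of all genes were. In either direction these were 5, 5 and 2 of the 7 members, where 73.1%, 63.9% and 40.9% of all tested genes had no overlap. The median log2 fold change of the 7 was 0.02, 0.05 and 0.01 in these comparisons, and that of all tested genes was 0.0005, -0.005 and 0.004.

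**Figure D2:**
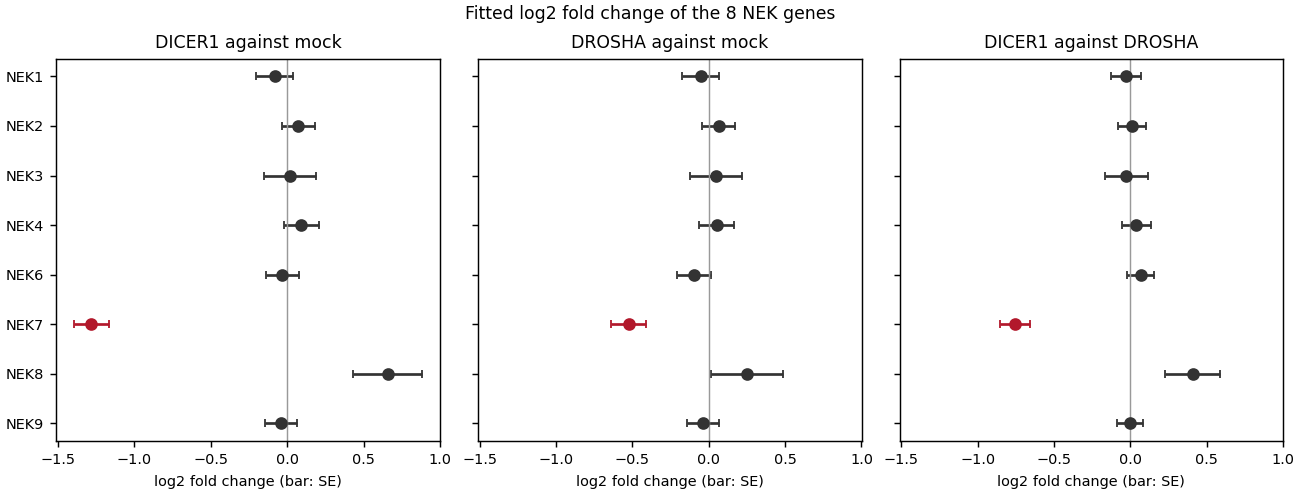
Fitted log2 fold change of each NEK gene with its SE for DICER1 against mock, for DROSHA against mock and for DICER1 against DROSHA. NEK7 lies at -1.28, -0.52 and -0.76 and NEK8 at 0.66, 0.25 and 0.41, while the other 6 lie between -0.10 and 0.09.

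**Figure D3:**
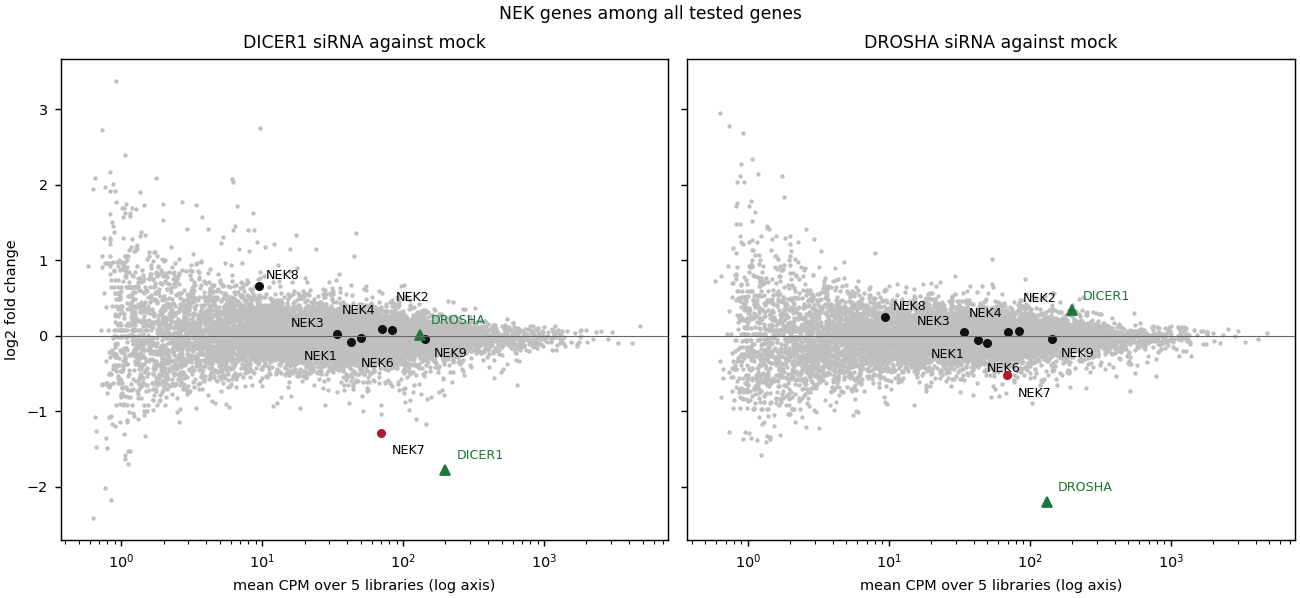
Log2 fold change against mean CPM (log axis) for all 12234 tested genes in grey, with the 8 NEK genes and the targeted genes marked. In DICER1 against mock NEK7 lies lowest after DICER1 itself among genes of its abundance. In DROSHA against mock NEK7 lies in the lower part of the grey cloud, at rank 329 from the lowest of all tested genes. Its rank there was 97 among the 10615 genes that averaged 5 CPM or more.

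Between genes, levels were compared as CPM per kb of exon (union of GENCODE 29 exons), a scale that corrects for length. In the mock, NEK2 had the highest level at 26.1 CPM per kb, followed by NEK7 at 19.7, NEK9 at 13.5, NEK6 at 11.7, NEK4 at 10.6, NEK3 at 7.85, NEK1 at 5.35 and NEK8 at 1.64. NEK7 was second in the mock and in the DROSHA siRNA libraries, at 13.7 ± 0.747 CPM per kb (SD, n = 2), and had rank 5 in the DICER1 siRNA libraries, at 8.09 ± 0.602 CPM per kb (SD, n = 2). In the DICER1 libraries NEK7 overlapped with NEK3, at 7.95 ± 1.23 CPM per kb (SD, n = 2), and in the DROSHA libraries with NEK9, at 13.2 ± 0.473 CPM per kb (SD, n = 2). Over all 5 libraries the ranges of NEK6, 10.9 to 11.7, and of NEK4, 10.6 to 11.8 CPM per kb, overlapped, so their order was not resolved. The order depends on the length used: with the longest transcript, NEK7 had rank 6 in the DICER1 siRNA libraries, at 10.7 CPM per kb, and second with 18.1 CPM per kb in the DROSHA libraries and 26.0 CPM per kb in the mock.

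**Figure D4:**
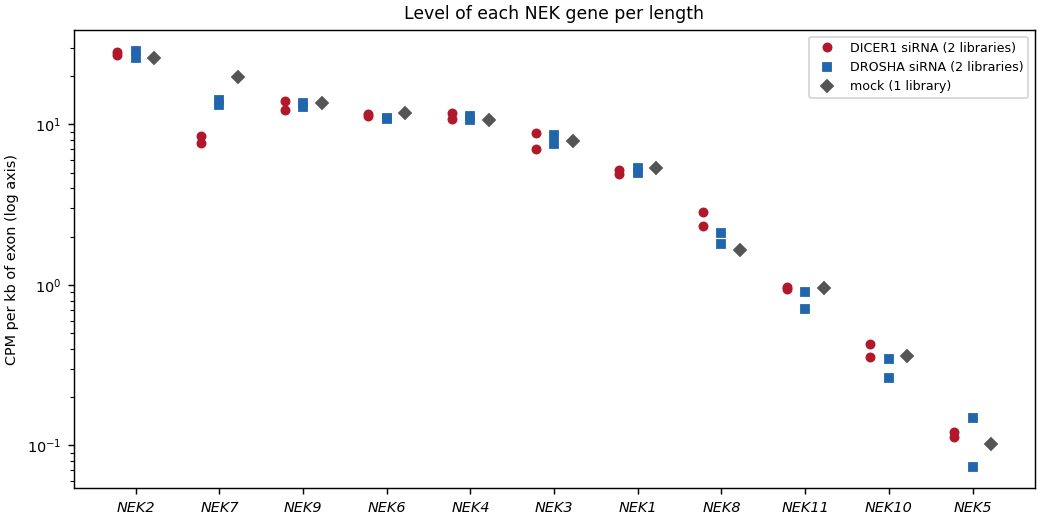
CPM per kb of exon (log axis) for the 8 members and for NEK11, NEK10 and NEK5, with 2 DICER1 siRNA libraries, 2 DROSHA siRNA libraries and 1 mock library per gene. NEK7 is the gene whose groups lie farthest apart, at 7.66 and 8.51 in the DICER1 libraries, 14.2 and 13.2 in the DROSHA libraries and 19.7 in the mock.

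The other 3 family genes in the table were scarce. NEK11, a checkpoint kinase, had 40 and 42 counts with DICER1 siRNA, 33 and 38 with DROSHA siRNA and 43 in the mock. NEK10 had 22 to 34 counts per library, and NEK5, with 4 to 9 counts, did not pass the filter on low counts. NEK11 and NEK10 had log2 fold changes of 0.008 ± 0.26 and 0.12 ± 0.32 in DICER1 against mock, neither past edgeR's test (adjusted p = 0.998 and 0.978).

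The spindle proteins that work with NEK9, NEK6 and NEK7 showed no call either. In a list of 18 such genes, edgeR's quasi-likelihood test called 0 in DICER1 against mock, with 2 lower at an unadjusted p under 0.05, MZT1 and NEDD1, where 5.46% of all tested genes were under it, and DESeq2 and the likelihood ratio test called 0. The list had 5 genes higher and 11 lower in both DICER1 libraries, where 36.7% and 36.4% of all tested genes were, and its median log2 fold change was -0.12 where that of all tested genes was 0.0005. In DROSHA against mock the median was 0.03, with 9 higher and 4 lower without overlap, where 31.5% and 32.5% of all tested genes were. At an unadjusted p under 0.05 there were 2, EML3 higher and MZT1 lower, where 3.69% of all tested genes were under it. In DICER1 against DROSHA there were 3, AURKA, NEDD1 and TUBGCP3, all lower, where 8.34% of all tested genes were under it. Without overlap, 1 gene of the list was higher there and 9 were lower, where 20.9% and 20.0% of all tested genes were. The median in that comparison was -0.11, where that of all tested genes was 0.004. MZT1, a small protein of the gamma-tubulin ring complex, had 124.6 and 119.4 CPM in the DICER1 libraries, 117.1 and 89.6 CPM in the DROSHA libraries and 158.4 CPM in the mock. All 4 siRNA libraries lay below the mock for MZT1, with log2 fold changes of -0.38 ± 0.15 in DICER1 against mock and -0.61 ± 0.15 in DROSHA against mock, neither past edgeR's test (adjusted p = 0.865 and 0.978). PLK1, the kinase that activates NEK9, had 329.2 and 306.8 CPM in the DICER1 libraries, 352.0 and 315.1 CPM in the DROSHA libraries and 314.2 CPM in the mock, and its DICER1 libraries lay on both sides of the mock. KIF11, the motor phosphorylated by NEK6, had 272.0 and 242.4 CPM in the DICER1 libraries, 278.5 and 302.3 CPM in the DROSHA libraries and 285.9 CPM in the mock. NEDD1, which brings gamma-tubulin to the centrosome, had 64.7 and 52.1 CPM in the DICER1 libraries, 71.2 and 79.9 CPM in the DROSHA libraries and 78.3 CPM in the mock. Its log2 fold change of -0.42 ± 0.15 in DICER1 against mock did not pass (edgeR adjusted p = 0.865).

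Of 11 genes of the NEK2 centrosome linker and the kinetochore, edgeR's quasi-likelihood test called 0 in each comparison, and the median log2 fold change in DICER1 against mock was 0.007. At an unadjusted p under 0.05, 2 of the 11 were lower there, MAD2L1 and STK3, and 0 were higher, where 5.46% of all tested genes were under it. In DROSHA against mock there were 0, against 3.69% of all tested genes, and in DICER1 against DROSHA again MAD2L1 and STK3, both lower, against 8.34%. MAD2L1 was called by the likelihood ratio test in DICER1 against mock, where DESeq2 called 0 of the 11, and by both DESeq2 and the likelihood ratio test in DICER1 against DROSHA. Over all 12234 tested genes the likelihood ratio test called 29 and 130 in these 2 comparisons, and DESeq2 called 5 and 24. MAD2L1, of the spindle checkpoint, had 116.9 and 85.2 CPM in the DICER1 libraries, 176.7 and 175.3 CPM in the DROSHA libraries and 180.6 CPM in the mock. Both DICER1 libraries lay below the other 3, with a log2 fold change of -0.84 ± 0.17 in DICER1 against mock (edgeR adjusted p = 0.865) and -0.80 ± 0.14 in DICER1 against DROSHA (edgeR adjusted p = 0.362). Of all tested genes, 36.4% were lower without overlap in DICER1 against mock and 20.0% in DICER1 against DROSHA. CEP250, the linker protein phosphorylated by NEK2, had 71.1 and 71.0 CPM in the DICER1 libraries, 73.7 and 71.5 CPM in the DROSHA libraries and 74.6 CPM in the mock. NDC80, a kinetochore protein that NEK2 also phosphorylates, had a log2 fold change of 0.09 ± 0.11 in DICER1 against mock.

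Of 11 ciliary genes that go with NEK8 and NEK1, edgeR's quasi-likelihood test called 0 in each comparison, and at an unadjusted p under 0.05 there were 0 in both comparisons with the mock and 1 in DICER1 against DROSHA, C21orf2, where 8.34% of all tested genes were under it. DESeq2 and the likelihood ratio test called 0. Their median log2 fold change was -0.01 in DICER1 against mock and 0.009 in DROSHA against mock. ANKS6, which binds NEK8 at the cilium, had 72.8 and 66.8 CPM in the DICER1 libraries, 75.2 and 66.2 CPM in the DROSHA libraries and 70.3 CPM in the mock.

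The inflammasome partners of NEK7 were at or near 0 in these cells. NLRP3 had 0 and 1 counts in the DICER1 siRNA libraries, 2 and 0 in the DROSHA siRNA libraries and 1 in the mock. PYCARD, the adaptor ASC, had 1 count over all 5 libraries, CASP1 and CASP5 had 0, and IL1B, GSDMD and CASP4 had at most 2 counts in any library. Counts this low do not allow a comparison between groups. Of the 10 genes in the list, 3 were tested, TXNIP, IL18 and P2RX7, and edgeR's quasi-likelihood test, DESeq2 and the likelihood ratio test called 0 of them in each comparison. At an unadjusted p under 0.05 there was 1 in DICER1 against mock, TXNIP, 0 for DROSHA against mock and 2 for DICER1 against DROSHA, IL18 and P2RX7, where 5.46%, 3.69% and 8.34% of all tested genes were under it. TXNIP, which inhibits thioredoxin, had 37.7 and 49.0 CPM in the DICER1 libraries, 37.5 and 41.6 CPM in the DROSHA libraries and 29.6 CPM in the mock.

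**Figure D5:**
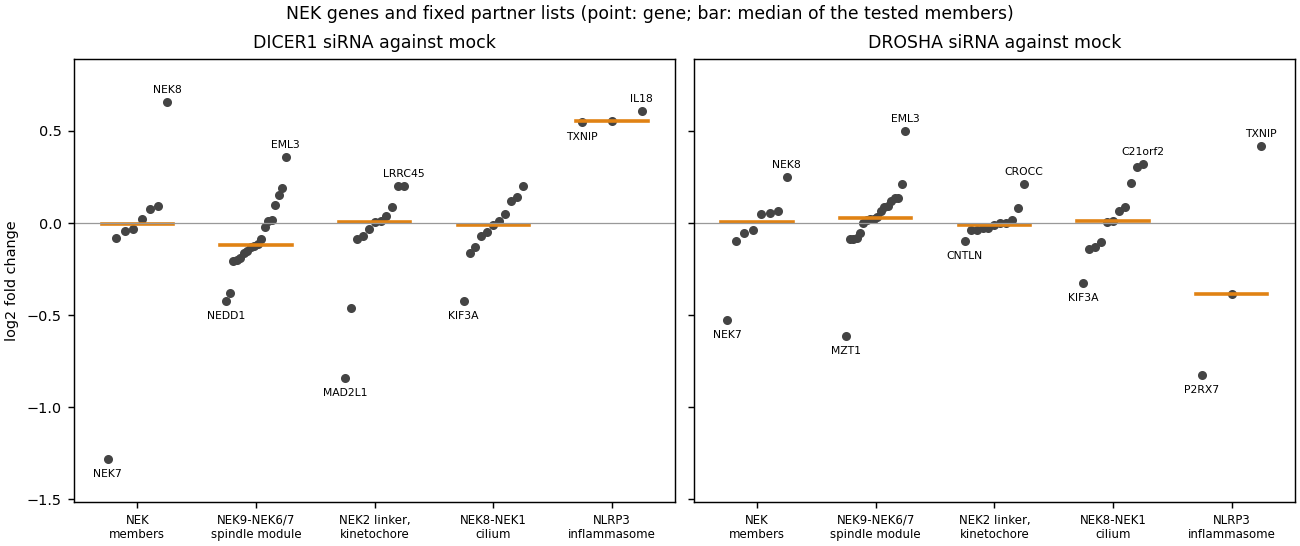
Log2 fold change of the NEK members and of the tested genes of each partner list in DICER1 against mock and in DROSHA against mock, with the median of each list as a bar. NEK7 at -1.28 and MAD2L1 at -0.84 are the lowest genes in DICER1 against mock, and the spindle list has its median at -0.12 there and at 0.03 in DROSHA against mock.

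The genes whose pattern over the 4 siRNA libraries was most like that of NEK7 were found by the Euclidean distance between log2 ratios to the mock, among 10615 genes. The 5 nearest were SOX21, at a distance of 0.65, SLC39A10 at 0.76, TWSG1 at 0.77, B4GALT6 at 0.78 and ZBTB41 at 0.81. SOX21, a transcription factor, had 34 and 38 counts with DICER1 siRNA, 44 and 40 with DROSHA siRNA and 71 in the mock. SLC39A10, a zinc transporter, had 358 and 254 counts with DICER1 siRNA, 569 and 325 with DROSHA siRNA and 647 in the mock. TWSG1, a regulator of BMP signalling, had 452 and 340 counts with DICER1 siRNA, 696 and 579 with DROSHA siRNA and 790 in the mock. All of these ratios share the single mock library. With DICER1 siRNA 1 the log2 ratios of the 5 genes to the mock lay between -0.97 and -0.67, where NEK7 had -1.36. With DICER1 siRNA 2 they lay between -1.33 for SLC39A10 and -0.85, where NEK7 had -1.21, so SLC39A10 was the lower of the 2 there. With DROSHA siRNA 1 they lay between -0.71 for SOX21 and -0.23 for TWSG1, where NEK7 had -0.47. With DROSHA siRNA 2 they lay between -0.89 for SLC39A10 and -0.02 for B4GALT6, where NEK7 had -0.58. ZBTB41, at -0.08, was also near the mock there. SOX21 differed little between the enzymes, at -0.89 and -0.85 with DICER1 siRNA and -0.71 and -0.70 with DROSHA siRNA.

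Genes that hold AATCTAA in the 3′ UTR were lower in the middle of their distribution in the DICER1 siRNA libraries. Their median log2 ratio to the mock was -0.08 with DICER1 siRNA 1 and -0.12 with DICER1 siRNA 2 over 1554 genes, and -0.04 with DROSHA siRNA 1 and -0.007 with DROSHA siRNA 2. The medians of the 10018 genes without it were 0.009, 0.02, 0.002 and 0.0006 in the same order of libraries. For the 267 genes with 2 or more matches, as in NEK7, the medians were -0.12 and -0.17 with DICER1 siRNA and -0.05 and 0.008 with DROSHA siRNA. NEK7 itself was at -1.36 and -1.21 with DICER1 siRNA and at -0.47 and -0.58 with DROSHA siRNA. It was chosen for being low, so its distance from these medians is no result. Genes with the 7-mer have longer 3′ UTRs, with a median of 3384.5 bases against 1260 bases without it, and the part of that length in the medians was not tested.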

How the data were processed

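The authors deposited raw read counts by gene symbol, as whole numbers without normalization, for 5 poly(A) RNA libraries. Per the submitters' processing notes, the tools were STAR, HTSeq, edgeR and CASAVA 1.8.2 and the build was hg19; their roles are not stated. Every column was assigned to a sample, leaving 0 unused. The filter asked for 1 CPM in 2 or more libraries. Tests used edgeR 4.0.16 (R 4.3.3), TMM factors and a model of the 3 groups with 2 residual degrees of freedom; the biological coefficient of variation was 8.51%. The mock is a single library, assumed to vary like the siRNA pairs. Each SE is the absolute log2 fold change over the root of its F statistic. DESeq2 1.42.0 was an alternative. Chi-square per degree of freedom between library pairs was at least 2.62, above counting noise. That lowest value came from the DICER1 pair, while the DROSHA pair gave 7.54, so the spread within pairs was unequal. Set against the mock, the DROSHA libraries gave 3.41 (siRNA 1) and 7.35 (siRNA 2), both below the value of their own pair. The DICER1 libraries gave 3.27 (siRNA 1) and 5.64 (siRNA 2) there, both above theirs. Which spread holds for the mock was not tested. Likeness and motif ratios to the mock use a prior count of 2. Lengths and 3′ UTRs come from GENCODE 29 on GRCh38, another build than that of the files, so coordinates are not printed. Members, lists and the 7-mer were chosen with earlier results of these data known. Named genes were the members, 9 of 10 fixed partners, list genes past the test and the 5 genes nearest to NEK7. AURKA, TUBGCP3, IL18, P2RX7, TXNIP, MZT1, EML3, STK3, C21orf2 and TLCD1 were named after their values were seen. Some genes of the fixed lists are counted but not reported by name here.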

Additional observations from a re-analysis of the deposited data

Results flagged for a closer look

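In 5 of the 53 tested members and partner genes, both DICER1 siRNA libraries lay on one side of the mock and both DROSHA siRNA libraries on the other, a share of 9.43% where all 12234 tested genes had 9.51%. None of the 5 is a NEK member, and none of the differences passed in edgeR's DICER1 against DROSHA test. For 4 of them the log2 difference, DICER1 minus DROSHA, was -0.30 for TUBGCP3 (adjusted p = 0.555), -0.23 for AURKA (adjusted p = 0.555), 0.99 for IL18 (adjusted p = 0.583) and 1.38 for P2RX7 (adjusted p = 0.540). IL18 and P2RX7 had at most 16 counts in any library.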

How the results depend on the processing

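NEK7 lay below the mock in all 8 alternatives of DICER1 against mock (log2 fold change -1.36 to -1.21) and in all 8 of DROSHA against mock (-0.58 to -0.47), and below DROSHA in all 12 of DICER1 against DROSHA. Among fits with all siRNA libraries, that last value passed with DESeq2 (-0.76, adjusted p = 0.00773) and the edgeR likelihood ratio test (-0.76, adjusted p = 3.62e-06). Both tests reuse the DICER1 libraries for which NEK7 was chosen, so neither pass is independent support. The log2 fold change was -0.70 without DROSHA siRNA 1 and -0.81 without DROSHA siRNA 2, and leaving out 1 library gave -0.84 to -0.69. Fits that leave out an siRNA library are given here by effect size only, whether or not they passed. A fit without a DROSHA library takes its spread from the DICER1 pair, chosen with NEK7 in view, and assumes that the lone DROSHA library varies like it. With the replicate block on siRNA number the log2 fold change was -0.76 (edgeR adjusted p = 0.170). The numbers share only a name. Over the tested genes, the siRNA 1 minus siRNA 2 differences of the 2 enzymes had a correlation of 0.0243.

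Genes called in DICER1 against mock numbered 1, but 5 with DESeq2, 29 with the likelihood ratio test, 3 with no filter, 7 with only the 2 groups compared and 0 without either DICER1 library. In DROSHA against mock there was 1, but 3 with the likelihood ratio test, 20 without DROSHA siRNA 2 and 233 without DROSHA siRNA 1. In DICER1 against DROSHA there were 2, but 24 with DESeq2, 130 with the likelihood ratio test, 12 with no filter, and 1 without DICER1 siRNA 2 up to 462 without DROSHA siRNA 1. The cause was not tested.

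Small values changed sign when 1 library was left out. In DICER1 against DROSHA the ranges were -0.0780 to 0.0205 for NEK1, -0.0598 to 0.0813 for NEK2, -0.196 to 0.118 for NEK3, -0.0285 to 0.101 for NEK4 and -0.0937 to 0.0809 for NEK9. In DICER1 against mock they were -0.149 to 0.164 for NEK3 and -0.133 to 0.0425 for NEK9, and in DROSHA against mock -0.00699 to 0.131 for NEK2 and -0.0534 to 0.136 for NEK3. Over the 7 members other than NEK7, 0 were called in all 28 alternatives. NEK8, with 61 to 104 counts per library, is the member whose precision depth limits most.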
